A study of Mus musculus with 6 samples.

Results

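The genes described here are 36 interferon-stimulated genes, that is genes whose transcription is raised when a cell senses interferon. They were chosen by symbol from a list of well-known responders, without a rule on their values in these libraries. Earlier results of these data were known when the genes were chosen. All 36 were found among the 41388 genes of the count table, and all 36 were among the 18660 genes with enough reads to be tested. Total RNA of whole lung was sequenced from adult mice at zeitgeber time 7 h, that is 7 h after lights on, with 3 libraries of wild-type mice (WT1 to WT3) and 3 of Zpbp2-/- mice (KO1 to KO3). The WT mice were C57BL/6J, and the KO mice (strain B6.129S7-Zpbp2tmZuk/Mmjax) carried a targeted deletion that removes the first exons of Zpbp2 and were kept on the same C57BL/6J background in the same colony. The deletion is present in every cell of the body from conception. It was made in stem cells of a 129 strain, so that DNA of that strain can remain around Zpbp2 on chromosome 11. Genotype is the only difference between the groups that the labels give, and no interferon treatment is among them.

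Reads assigned to genes ranged from 59134950 in KO3 to 71354388 in WT1. Zpbp2 itself had 7 to 20 counts in the WT libraries, 1 in KO1 and 0 in KO2 and KO3, as the labels require. At these low counts the deleted gene itself did not pass the edgeR test used below (log2 fold change -4.80, adjusted p = 0.0653). The lung markers Sftpc, Ager and Scgb1a1 were abundant in every library. KO2 and KO3 differed by little more than counting noise, with a median variance that was 1.71 to 1.94 times the counting variance for genes below 20000 counts. It was 3.33 times above that. At 20 to 200 counts WT1 and WT2 were about as close, at 1.86. From 200 to 20000 counts the other pairs of a genotype stood at 3.67 to 21.1, so that KO2 and KO3 were the most alike there. KO1, KO2 and KO3 are described in the study as separate mice, but because of this likeness KO2 and KO3 were summed and counted as 1 sample, as a cautious choice. Every KO mean and every test below has n = 2 (KO1, and KO2 with KO3), against n = 3 for WT, unless libraries are said to be kept apart or left out. Some libraries stood apart in their cell type markers. The 10 squamous epithelium keratin and cornification genes summed to 4620 CPM (counts scaled by the size of the library) in WT3 and 8860 in KO1, against 7.57 to 12.9 in the other 4 libraries, and the 6 erythroid genes to 18991 and 19734 CPM in KO2 and KO3, against 2399 to 5522 elsewhere.

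Interferons are secreted proteins of the antiviral defence. Type I interferons bind the receptor made of Ifnar1 and Ifnar2, the kinases Jak1 and Tyk2 then activate transcription factors, and a complex that holds Stat2 and Irf9 binds the interferon-stimulated response element (ISRE) in the promoters of responding genes. Type II interferon, the product of Ifng, acts through its own receptor and on promoters with the gamma-activated site (GAS). In a resting lung these genes are kept at a low tonic level by small amounts of interferon, and their products detect viral RNA, block its translation, degrade it or attack the vacuoles of intracellular microbes.

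Promoters were searched for both elements in RefSeq sequence of GRCm38.p6, from 250 bases before to 50 bases after each transcription start. An entry was found for 26 of the 36 genes, with 30 promoters in all. The ISRE core, spelled GAAA, then NN, then GAAA again and searched on both strands, was present in 18 of the 30 promoters (60%), against 1131 of all 32851 promoters in the table (3.44%). The GAS, spelled TTCNNNGAA and its own reverse complement, was present in 7 of the 30 (23.3%), against 8.3% of all promoters. A match of letters is a description and not a measured binding site. Windows of 30 bases from 7 genes with an ISRE match follow, chosen as examples from the effectors and GTPases described by library in the text, with that of the GAS match of Ifit2, which passed the test. Each is written 5′ to 3′ on the strand of its gene, with the matched letters in capitals.
Isg15 (chr4:156200871-156200900, minus strand): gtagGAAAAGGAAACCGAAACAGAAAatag
Bst2 (chr8:71537580-71537609, minus strand): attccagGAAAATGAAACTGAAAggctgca
Ifit1 (chr19:34640775-34640804, plus strand): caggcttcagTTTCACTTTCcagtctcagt
Ifit3 (chr19:34583363-34583392, plus strand): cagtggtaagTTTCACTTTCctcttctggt
Rsad2 (chr12:26456553-26456582, minus strand): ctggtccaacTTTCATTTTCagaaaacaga
Gbp7 (chr3:142530273-142530302, plus strand): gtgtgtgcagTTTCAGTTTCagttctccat
Igtp (chr11:58199512-58199541, plus strand): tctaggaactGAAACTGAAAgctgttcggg
Ifit2 (chr19:34550444-34550473, plus strand, GAS match): catgggagcTTCCTGGAAgaatggataaaa
In Isg15 the capitals hold 3 overlapping matches and in Bst2 they hold 2, whereas each of the other 5 ISRE windows holds 1. Ifit1 and Ifit3 carry the same 10 letters. Among the genes named below as passing the test, Ifit2, Ifi35 and Dtx3l have no ISRE match in these 300 bases, and Ifit2 and Ifi35 have a GAS match.

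The KO lungs differed from WT in a minority of these genes, and not in 1 direction. By edgeR's quasi-likelihood test with Benjamini-Hochberg adjustment over all genes tested, 3 of the 36 genes (8.33%) passed an adjusted p of 0.05, against 2.28% of all genes tested (426 of 18660). Ifi35, an interferon-induced leucine zipper protein, rose, while Ifit2, which binds viral RNA and curbs its translation, and Dtx3l, a ubiquitin ligase that works with Parp9, fell. At an unadjusted p of 0.05, 12 of the 36 were lower in KO and 5 higher, against 13.4% and 13.9% of all genes. With KO2 and KO3 kept apart edgeR called 5 of the 36 higher and 7 lower (9.81% and 9.07% of all genes), or 2 and 2 with replicate numbers as a block (6.42% in either direction). The DESeq2 Wald test, with KO2 and KO3 summed, called 4 higher and 10 lower (21%). Leaving out WT1, WT2, WT3, KO1 or the sum of KO2 and KO3 in turn left none of the 36 called by edgeR, with 10 to 18 of them at an unadjusted p of 0.05. The same fits called 0 to 17 of all genes, and 3346 to 5070 of all genes passed before adjustment. Leaving out KO1, or KO2 and KO3, leaves a KO group of 1 sample that is assumed to vary like WT. The median log2 fold change (KO minus WT throughout) was -0.08 over the 36 genes and 0.02 over all genes tested, with 24 of the 36 below 0 against 47.8% of all genes. Without KO1 the median was -0.024 over the 36 genes and -0.016 over all genes with 20 of the 36 below 0, and without KO2 and KO3 it was -0.22 against -0.0066 with 27 below 0. In 14 of the 36 every KO library lay below every WT library, where 20.7% of all genes did so, and in 5 every KO library lay above, where 20% did. The level was not even within the KO group, since KO1 was the lowest of the 6 libraries for 24 of the 36 genes, against 25.3% of all genes. WT3, the other library rich in squamous genes, was lowest for 4 of the 36 (14.5% of all genes), and KO2 and KO3 were lowest for none (13.4% and 14.2% of all genes). The part of the squamous cells in this order was not tested.

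**Figure D1:**
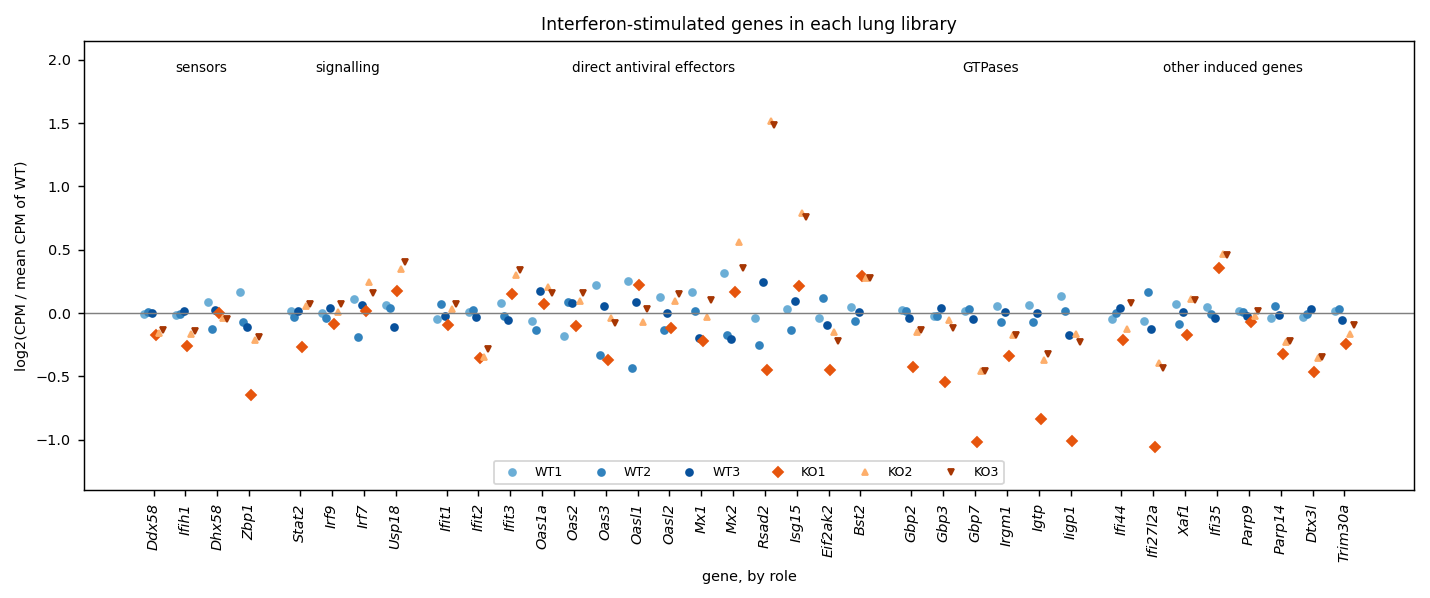
Level of each of the 36 interferon-stimulated genes in each of the 6 libraries, as the log2 ratio of its CPM to the WT mean, with genes grouped by role. KO1 is the lowest library for 24 of the 36 genes, and the GTPases are below the WT mean in all 3 KO libraries.

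The sensors recognise foreign or misplaced nucleic acid. Of the 4, none passed the edgeR test (2 were lower at an unadjusted p of 0.05, against 13.4% of all genes, and DESeq2 called 2 lower, against 21% in either direction), and their median log2 fold change was -0.18, or -0.07 with an offset for gene length and GC content. Ddx58, which encodes the RNA sensor RIG-I, had 85.2, 85.8 and 85.2 CPM in WT1, WT2 and WT3 and 75.8, 76.8 and 77.8 in KO1, KO2 and KO3. The groups did not overlap, and the libraries within each were close together. The difference did not pass (edgeR adjusted p = 0.102, log2 fold change -0.15, SE 0.04). Ifih1, which encodes MDA5, the sensor of long double-stranded RNA, had 50.4, 50.9 and 51.7 CPM in WT and 42.7, 45.5 and 46.1 in KO (log2 fold change -0.20, edgeR adjusted p = 0.0984), and its log2 fold change was -0.04 under the offset. Zbp1, a sensor of Z-form nucleic acid that triggers cell death, had the log2 fold change of the 4 farthest from 0, with 19.0, 16.1 and 15.6 CPM in WT and 10.8, 14.5 and 14.8 in KO. Every KO library was below WT, KO1 furthest, and the edgeR adjusted p was 0.216 for a log2 fold change of -0.40, which was -0.20 without KO1 and -0.65 without KO2 and KO3. Dhx58 (LGP2), the regulator of the other RNA helicases, overlapped between groups at 16.0, 13.8 and 15.3 CPM in WT and 15.0, 14.6 and 14.6 in KO.

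The genes that pass the signal on or restrain it showed no gene past the edgeR test among 4 (1 higher before adjustment, against 13.9% of all genes, and 1 higher in DESeq2, against 21% in either direction), and their median log2 fold change was 0.05. Stat2, a subunit of the ISRE-binding complex, had 104, 101 and 104 CPM in WT and 85.7, 107 and 108 in KO, so that KO1 lay below all others while KO2 and KO3 lay above them. Irf9, the DNA-binding subunit, had 75.4, 73.5 and 77.7 CPM in WT and 71.2, 75.9 and 79.4 in KO (log2 fold change -0.02). Irf7, the factor that amplifies type I interferon production, had 35.8, 29.1 and 34.6 CPM in WT and 33.5, 39.3 and 37.1 in KO (log2 fold change 0.12, edgeR adjusted p = 0.573). That value was 0.18 without WT1, 0.026 without WT2, 0.20 without KO1 and 0.012 without KO2 and KO3. Usp18, the protease that removes Isg15 from its targets and blocks the type I receptor, was the only 1 of the 4 without overlap. It had 23.7, 23.3 and 21.1 CPM in WT and 25.7, 28.9 and 30.03 in KO, which did not pass (edgeR adjusted p = 0.143, log2 fold change 0.29, SE 0.10, or 0.18 without KO2 and KO3).

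Of the 14 direct antiviral effectors, 9 had log2 fold changes above 0, with a median of 0.07. Before adjustment 3 passed 0.05 as higher and 2 as lower (13.9% and 13.4% of all genes), and DESeq2 called 2 higher and 1 lower (21% in either direction). Ifit2, which was lower in KO, passed the edgeR test. Ifit2 (chr19:34550694-34576419, plus strand, GRCm38) had 38.02, 38.5 and 37.0 CPM in WT1, WT2 and WT3 and 29.7, 29.8 and 31.1 in KO1, KO2 and KO3. The groups were well apart, and KO1 lay with the other KO libraries. Means were 37.9 ± 0.766 CPM (SD, n = 3) in WT and 30.1 ± 0.567 (SD, n = 2) in KO. The difference passed the edgeR test at an adjusted p of 0.0496 (log2 fold change -0.33, SE 0.05). Over the 17 alternative analyses its adjusted p ran from 8.97e-07 to 0.189. Ifit1 and Ifit3 lie near it in the same cluster on chromosome 19. Ifit1 had 16.7, 18.1 and 17.0 CPM in WT and 16.1, 17.6 and 18.2 in KO (log2 fold change -0.02, edgeR adjusted p = 0.926). Ifit3 had 33.1, 30.8 and 30.2 CPM in WT and 34.8, 38.7 and 39.8 in KO, all above WT (log2 fold change 0.24, or 0.15 without KO2 and KO3, edgeR adjusted p = 0.139), and its reads can be shared with the near-identical Ifit3b. The differences between these log2 fold changes were not tested.

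Bst2, the tetherin that holds budding virus at the cell surface, had 89.96, 83.2 and 87.7 CPM in WT and 106, 105 and 105 in KO. All 3 KO libraries were above WT and close to each other, yet the edgeR adjusted p missed the threshold at 0.0583 (log2 fold change 0.29, SE 0.05). Isg15, the ubiquitin-like modifier, had 12.3, 11.002 and 12.9 CPM in WT and 13.9997, 20.9 and 20.3 in KO. KO1 was just above the WT range, and KO2 and KO3 were 1.47 times as high as KO1 (log2 fold change 0.53 ± 0.19 SE, edgeR adjusted p = 0.155). Without KO1 its log2 fold change was 0.77, and without KO2 and KO3 it was 0.21. Rsad2, which encodes viperin, had the largest log2 fold change of the 36 genes and the least even KO group. It had 13.1, 11.3 and 15.9 CPM in WT against 9.84, 38.4 and 37.7 in KO. KO1 was thus the lowest of all libraries while KO2 and KO3 were 3.86 times as high as KO1. Its log2 fold change of 0.84 had an SE of 0.55 (edgeR adjusted p = 0.389), and leaving out KO2 and KO3 turned it to -0.45. Ube2l6, the enzyme that conjugates Isg15, and the exonuclease gene Isg20 had a like spread outside the 36 genes, with 45.6 and 42.8 CPM in KO1 against 146 and 91.9 in KO2. The erythroid marker sum was 3966 CPM in KO1, 18991 in KO2 and 19734 in KO3, and all 6 of its genes were detected. The sum of 5 hepatocyte genes was 4.83, 39.4 and 39.5 CPM in the same libraries against 1.43 to 1.65 in WT. The part of these cells in the Rsad2 and Isg15 values was not tested.

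Eif2ak2, which encodes PKR and halts translation on double-stranded RNA, had 41.3, 46.0 and 39.7 CPM in WT and 31.0, 38.1 and 36.4 in KO (log2 fold change -0.30, edgeR adjusted p = 0.162), and its log2 fold change was -0.19 without KO1 and -0.45 without KO2 and KO3. The oligoadenylate synthetase genes and the synthetase-like genes Oasl1 and Oasl2 overlapped between the groups in every case. Oas2 had 17.8, 21.4 and 21.3 CPM in WT and 18.8, 21.6 and 22.6 in KO. Oasl2 had 79.9, 66.7 and 73.0 CPM in WT and 67.6, 78.1 and 81.2 in KO. Oas1a, Oas3 and Oasl1 lay between 3.05 and 6.82 CPM in every library, and the log2 fold changes of the 5 genes ranged from -0.20 (Oas3) to 0.14 (Oas1a). Over the 17 alternatives Oas3 ran from -0.37 without KO2 and KO3 to -0.06 without KO1. Oas1a ran from 0.01 with the length and GC offset to 0.23 without WT3. Oas1a can share reads with its near-identical copies. Mx1, a GTPase that traps viral nucleocapsids, had 7.03, 6.35 and 5.47 CPM in WT and 5.40, 6.14 and 6.77 in KO. Mx2 had 6.19, 4.398 and 4.30 CPM in WT and 5.57, 7.32 and 6.35 in KO. C57BL/6 mice are known to carry defective copies of both Mx genes, so their transcripts mark the response and not antiviral activity.

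**Figure D2:**
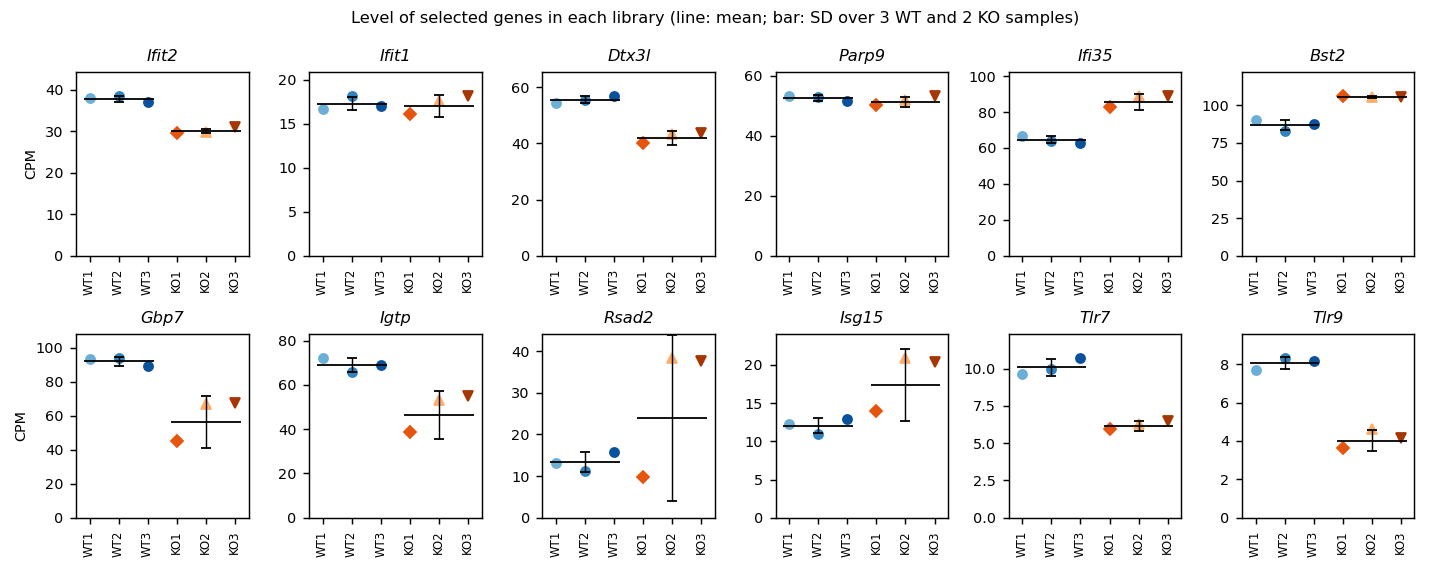
CPM of 12 genes in each library, with lines for the WT and KO means and bars for the SD, the KO values being taken over KO1 and the mean of KO2 and KO3. The KO libraries lie together and apart from WT for Ifit2, Dtx3l, Ifi35, Bst2, Tlr7 and Tlr9, whereas KO1 lies apart from KO2 and KO3 for Gbp7, Igtp, Rsad2 and Isg15.

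The interferon-induced GTPases surround and disrupt the vacuoles of bacteria and protozoa and respond to interferon gamma above all. All 6 had log2 fold changes below 0, with a median of -0.42. None passed the edgeR test, while 4 were lower at an unadjusted p of 0.05 (13.4% of all genes) and 4 in DESeq2 (21% of all genes in either direction). In 5 of the 6 every KO library lay below every WT library (20.7% of all genes), and KO1 was the lowest library in all 6. Without KO1, which leaves 1 KO sample so that the values are a description, the median of the 6 was -0.19, with Gbp7 at -0.46, Igtp at -0.35, Iigp1 at -0.20, Irgm1 at -0.17, Gbp2 at -0.14 and Gbp3 at -0.09. Gbp7 had 93.1, 93.9 and 89.1 CPM in WT1, WT2 and WT3 and 45.3, 66.9 and 67.1 in KO1, KO2 and KO3. The WT libraries lay close together, and the KO libraries were well below them but KO1 was apart from KO2 and KO3. WT averaged 92.0 ± 2.60 CPM (SD, n = 3) and KO 56.2 ± 15.3 (SD, n = 2), which left the edgeR adjusted p at 0.0841 (log2 fold change -0.71, SE 0.17). Igtp (IRGM3) had 72.2, 65.8 and 68.8 CPM in WT and 38.7, 53.2 and 55.1 in KO (log2 fold change -0.56 ± 0.16 SE, edgeR adjusted p = 0.101). Iigp1 had 81.2, 74.8 and 65.5 CPM in WT and 36.7, 65.8 and 62.8 in KO, where KO2 overlapped WT3. Gbp2 had 125, 124 and 120 CPM in WT and 91.3, 111 and 112 in KO, and Gbp3 had 61.1, 61.1 and 63.7 in WT and 42.5, 59.8 and 57.1 in KO. The log2 fold changes were -0.54 for Iigp1, -0.27 for Gbp2 and -0.29 for Gbp3. Over the 17 alternatives Iigp1 ran from -1.01 to -0.20, Gbp2 from -0.43 to -0.14 and Gbp3 from -0.55 to -0.09. Irgm1, a regulator of the family, had the smallest difference, with 73.0, 66.8 and 70.6 CPM in WT and 55.4, 62.3 and 62.1 in KO (log2 fold change -0.25, edgeR adjusted p = 0.123). Igtp shares 162 exonic bases (8.01%) with Irgm2, so part of its reads cannot be assigned with certainty, and near-identical Gbp genes can share reads too.

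Further GTPase genes outside the 36 also had log2 fold changes below 0, from -0.72 (Gbp6) to -0.43 (Gbp8). KO and WT libraries overlapped for Gbp8. The counts that follow pool these genes with the GTPases of the 36. With Gbp4, Gbp5, Gbp6, Gbp8, Gbp9, Irgm2, Ifi47, Tgtp1 and Tgtp2 added, 15 listed genes of the guanylate-binding (GBP) and immunity-related GTPase (IRG) families were described. Genes of these families outside the list were not examined. All 15 had log2 fold changes below 0, from -0.72 (Gbp6) to -0.25 (Irgm1), with a median of -0.56. The KO and WT libraries did not overlap in 13 of them, against 20.7% of all genes in that direction. Of the 15, 11 had an unadjusted p of at most 0.05 (13.4% of all genes were lower at that level), none passed the edgeR adjusted p, 11 were called lower by DESeq2 (21% of all genes in either direction), and 5 were called by edgeR when the 6 libraries were kept separate (all lower, against 9.07% of all genes). KO1 was the lowest library for all 15, and KO2 and KO3 were 1.12 to 1.93 times as high as KO1, with a median of 1.40. Without KO1 the median log2 fold change of the 15 was -0.34. These genes lie in a few clusters and can share reads, so they are not independent of each other.

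**Figure D3:**
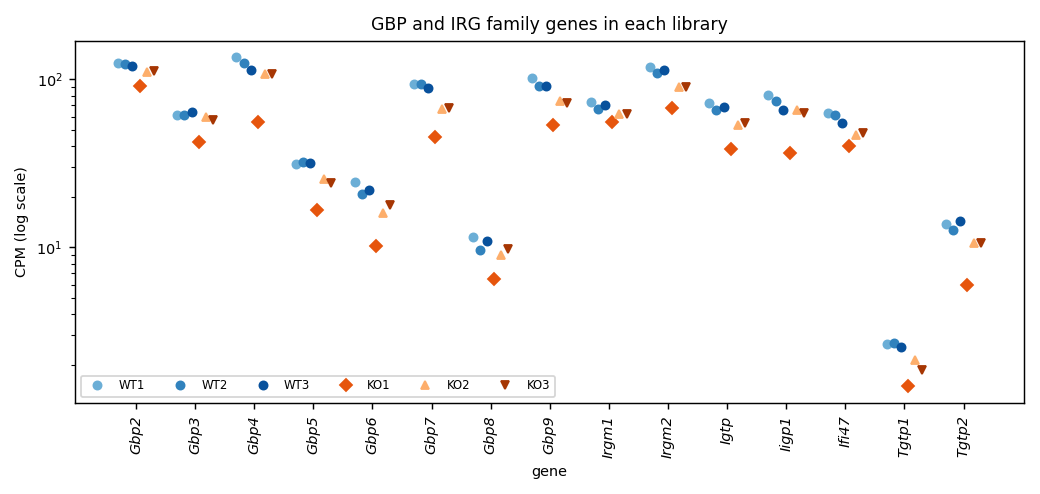
Level of the 15 GBP and IRG genes in each library, as CPM on a log scale. All 3 KO libraries lie below every WT library for 13 of the 15 genes, and KO1 is the lowest library for each.

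The remaining 8 genes have varied roles, and they held the largest rise and the largest fall that passed the test. Ifi35 (chr11:101448407-101458698, plus strand) had 66.6, 64.1 and 63.0 CPM in WT1, WT2 and WT3 and 82.7, 89.0 and 88.8 in KO1, KO2 and KO3. All KO libraries lay above all WT libraries, and KO1 lay near the others. WT averaged 64.6 ± 1.86 CPM (SD, n = 3) and KO 85.8 ± 4.398 (SD, n = 2). The rise passed the edgeR test at an adjusted p of 0.0474 (log2 fold change 0.41, SE 0.06). That p was 0.276 once gene length and GC content were taken up by an offset, and it ranged from 4.74e-08 to 0.276 over the 17 alternatives. Ifi35 shares 290 exonic bases (16.8%) with Gm11626 on the other strand, and since a strand setting of the counting was not given in the sources used here, reads of the pair may not be told apart. It lies 2.89 Mb from Zpbp2 on chromosome 11, and Dhx58 lies 2.14 Mb from Zpbp2. These are the 2 of the 36 genes within 20 Mb of Zpbp2, and 1 of the 2 passed the test, against 4.12% of the 656 genes tested in that interval. An effect of strain DNA near the deletion and of the loss of Zpbp2 cannot be told apart for them.

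Dtx3l and Parp9 form a complex, are divergently transcribed from a shared promoter region and lie beside Parp14 on chromosome 16. The difference between their log2 fold changes was not tested. Dtx3l (chr16:35926511-35939151, minus strand) had 54.5, 55.5 and 56.9 CPM in WT and 40.3, 43.5 and 43.7 in KO. The groups were well apart, averaging 55.6 ± 1.21 CPM (SD, n = 3) and 41.9 ± 2.36 (SD, n = 2), and the fall passed the edgeR test (adjusted p = 0.0474, log2 fold change -0.40, SE 0.06). Parp9, the mono-ADP-ribosyltransferase partner, had 53.2, 52.9 and 51.6 CPM in WT and 50.1, 51.8 and 53.0 in KO, which overlapped (log2 fold change -0.03, edgeR adjusted p = 0.73). Dtx3l and Parp9 share 458 exonic bases, which are 9.40% of those of Parp9. Parp14, another ADP-ribosyltransferase, had 153, 163 and 155 CPM in WT and 126, 134 and 135 in KO (log2 fold change -0.27 ± 0.06 SE, edgeR adjusted p = 0.0724), and without overlap. Under the offset Dtx3l stood at a log2 fold change of -0.30 (edgeR adjusted p = 0.124) and Parp14 at -0.08.

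Ifi27l2a, a small mitochondrial and nuclear membrane protein, had 88.1, 103 and 84.3 CPM in WT and 44.0, 69.8 and 67.8 in KO. Every KO library was below WT and KO1 was the lowest by a wide margin, and the test was not passed (edgeR adjusted p = 0.122, log2 fold change -0.69, SE 0.21). Without KO1 its log2 fold change was -0.42, and without KO2 and KO3 it was -1.06. Trim30a, a restrainer of Toll-like receptor signalling, had 43.9, 44.5 and 41.8 CPM in WT and 36.6, 38.8 and 40.7 in KO (log2 fold change -0.18, edgeR adjusted p = 0.152). Ifi44 and the apoptosis factor gene Xaf1 overlapped between the groups, with 9.60 to 11.8 CPM and 33.1 to 40.2 CPM over the 6 libraries.

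**Figure D4:**
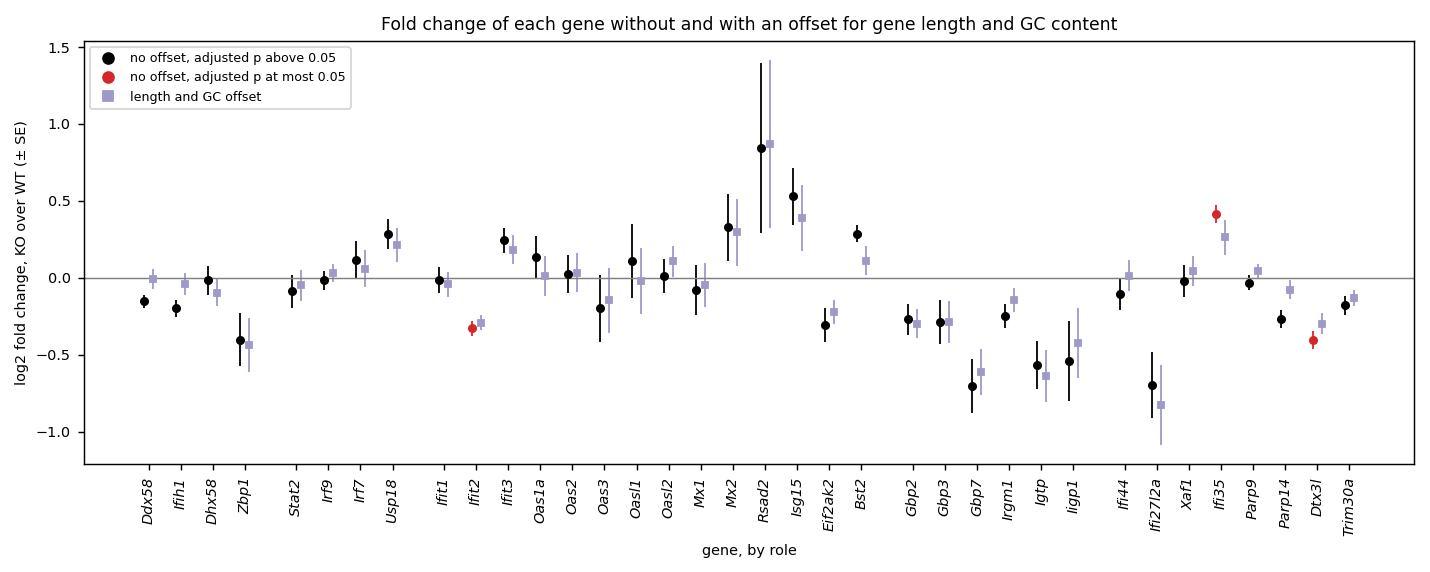
Log2 fold change (KO minus WT) with its SE for each of the 36 genes, grouped by role, from the edgeR fit and from the fit with an offset for length and GC content. The 3 genes past an adjusted p of 0.05 are Ifi35, Dtx3l and Ifit2, and none passes with the offset.

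Compared per kilobase of exon, so that genes of different length can be ranked, mean WT levels spanned from 0.6004 CPM per kb for Oas3 to 198 for Ifi27l2a. The order went on from the top with Bst2 at 96.3, Gbp2 at 48.8, Ifi35 at 37.4 and Igtp at 34.1 CPM per kb, and from the bottom with Mx2 at 1.37, Oasl1 at 1.57, Mx1 at 1.66 and Ifi44 at 1.81. Each of Mx2, Oasl1, Mx1 and Ifi44 overlapped its neighbour in this order across the WT libraries, so the order of neighbours is not fixed. Effectors thus stood at both ends of the order.

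The ligands, receptors and transducers of the pathway lie outside the 36 genes and were taken from a list of 105 genes, of which 93 were tested. None was called higher and 2 were called lower by edgeR, against 1.38% and 0.906% of all genes, and before adjustment 6 passed 0.05 as higher and 24 as lower (13.9% and 13.4% of all genes). Transcripts of type I and type III interferon were at most 2 counts in any library for 11 of the 12 ligand genes, so a difference was not detectable at this depth. Counts of Ifng were 20, 37 and 26 in WT against 16, 23 and 18 in KO (log2 fold change -0.45, edgeR adjusted p = 0.487). None of the 6 receptor genes passed the edgeR test (1 higher before adjustment, against 13.9% of all genes, and 1 higher in DESeq2, against 21%), and their log2 fold changes ran from -0.14 for Ifnar1 (edgeR adjusted p = 0.192) to 0.19 for Il10rb (edgeR adjusted p = 0.107), with Ifnar2 at 0.10, Ifngr1 at 0.04, Ifngr2 at 0.08 and Ifnlr1 at 0.04. Jak1 had 298, 295 and 292 CPM in WT and 262, 242 and 245 in KO (log2 fold change -0.22, edgeR adjusted p = 0.0871), without overlap, and stood at -0.07 under the offset. Tyk2, Irf1 and Irf3 had log2 fold changes of -0.08, 0.01 and 0.19. Of the 13 signal transduction genes tested, none passed in edgeR. Before adjustment 3 were higher and 3 lower (13.9% and 13.4% of all genes), and DESeq2 called 3 higher and 3 lower (21% in either direction). The values farthest from 0 were those of Socs1 (0.49) and Socs3 (0.39).

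The 2 pathway genes that passed were the endosomal receptors for single-stranded RNA and for unmethylated CpG DNA, which start interferon production. Tlr7 had 9.63, 9.95 and 10.7 CPM in WT and 5.94, 6.28 and 6.51 in KO. Tlr9 had 7.70, 8.33 and 8.17 CPM in WT and 3.63, 4.62 and 4.16 in KO. For both, the KO libraries lay together and far below WT. On the log2 scale Tlr7 fell by 0.71 (SE 0.10, edgeR adjusted p = 0.0474) and Tlr9 fell by 0.999 (SE 0.13, edgeR adjusted p = 0.0448), and the offset for length and GC raised each p to 0.103. Tlr3, the receptor for double-stranded RNA, had a log2 fold change of -0.27 (edgeR adjusted p = 0.0814). Tlr7 and Tlr9 are known to be abundant in plasmacytoid dendritic cells, whose marker Siglech had 2.84, 3.90 and 4.603 CPM in WT and 2.70, 2.39 and 2.60 in KO. The sum of the 7 markers of these cells ranged from 103 to 173 CPM in WT and was 183, 79.9 and 82.0 in KO1, KO2 and KO3, and its most abundant gene, Cox6a2, is also a muscle gene. The part of these cells in the Tlr7 and Tlr9 values was not tested. Among 60 other induced genes tested outside the 36, none passed in edgeR (2 higher and 17 lower before adjustment, against 13.9% and 13.4% of all genes, and 2 and 15 in DESeq2, against 21% in either direction). Their median log2 fold change was -0.17, and 25 had all KO libraries below WT, as did 20.7% of all genes.

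Interferon-stimulated genes are expressed in many cell types of the lung, and in whole tissue fewer cells of a type and less RNA per cell cannot be told apart. The 4 pan-leukocyte markers summed to 522 to 561 CPM in WT and to 485, 492 and 504 in KO1, KO2 and KO3. The 10 macrophage and monocyte markers summed to 539 to 647 CPM in WT and to 479, 472 and 475 in KO. Both sums were lower in every KO library than in every WT library. Other leukocyte sums overlapped. The B cell sum was 561 to 708 CPM in WT and 552, 735 and 738 in KO1, KO2 and KO3. The neutrophil sum was 79.7 to 120 CPM in WT and 110, 87.7 and 84.4 in KO. The endothelial sum was 3292 to 3503 CPM in WT and 3748, 3033 and 3023 in KO, and that of T and NK cells 67.9 to 81.8 in WT and 69.0, 71.6 and 69.2 in KO. The alveolar type 2 sum was 20731 to 21706 CPM in WT and 31123, 29599 and 29439 in KO, so epithelial transcripts took a larger share of the KO libraries. Fat and heart markers ran the other way, with an adipocyte sum of 478 to 862 CPM in WT and 66.0, 138 and 142 in KO and a cardiomyocyte sum of 2082 to 5378 in WT and 1394, 1212 and 1219 in KO. The defining markers of all of these cells were detected. Their part in the interferon-stimulated genes was not tested, apart from a fit with the squamous sum as a term, in which 3 of the 36 genes were called higher and 6 lower, against 13.6% of all genes in either direction.

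The log2 fold change also varied with transcript length across all genes. Genes under 3000 exonic bases had a median of 0.15 and longer ones -0.04. The interferon-stimulated genes followed the same order, since the 11 short ones had a median of 0.14 with 7 above 0, and the 25 long ones a median of -0.15 with 5 above 0. With an offset that takes up length and GC content the medians were 0.01 and -0.05, no gene of the table passed the edgeR adjusted p (3817 did before adjustment), and 7 of the 36 genes had an unadjusted p of at most 0.05, all lower in KO. The share of all genes lower at that level was 8.85% with the offset. The GTPases had a median of -0.36 over the 6 and -0.50 over the 15 listed genes of both families, and Irgm1 went from -0.25 to -0.14. Under the offset the log2 fold changes were 0.11 for Bst2, 0.26 for Ifi35, -0.01 for Ddx58, -0.29 for Ifit2, -0.61 for Gbp7 and -0.83 for Ifi27l2a.

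**Figure D5:**
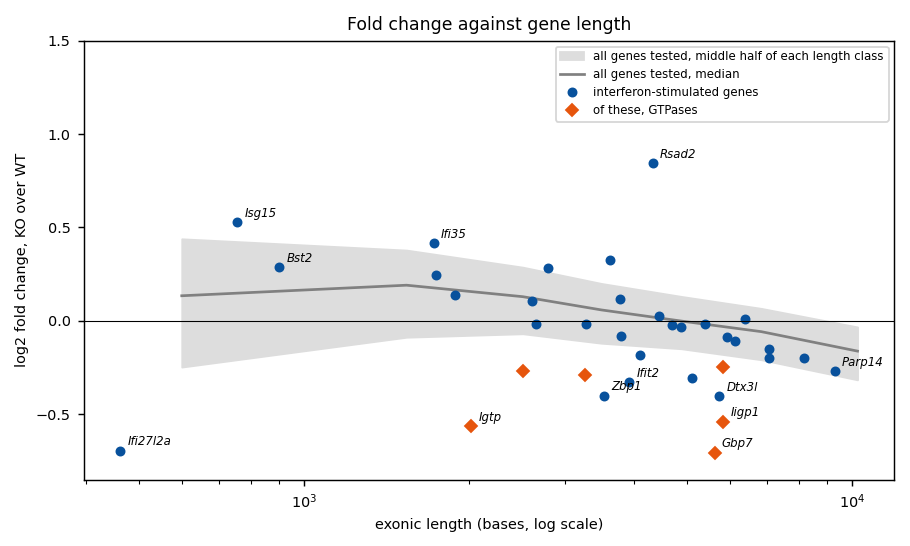
Median log2 fold change of all genes tested by exonic length, with the quartiles as a band, and the 36 interferon-stimulated genes as points. All genes fall from a median of 0.19 at 1000 to 2000 bases to -0.16 at 8000 bases or more, and most short members lie above 0 and most long ones below.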

How the data were processed

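The authors deposited raw read counts per gene, whole numbers that were not normalized, from single libraries. Per the labels' processing notes the reads went through Trimmomatic 0.36, STAR 2.5.3a, Picard 2.9.0 and HTSeq 0.6.0 on mm10, and the annotation release and strand setting are not given in the sources used here. Reads carry no molecular identifiers, so counting error is a lower limit. Gene models came from GENCODE M21 on GRCm38 (97.5% of IDs matched).

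Counts were tested in R 4.3.3 with edgeR 4.0.16 (filterByExpr, TMM, quasi-likelihood test, genotype alone), over 18660 genes, with Benjamini-Hochberg adjustment and a threshold of 0.05. CPM used TMM over the 6 libraries. The script was tested on simulated data. The study describes the libraries as coming from separate mice, and KO2 and KO3 were nonetheless summed and counted as 1 sample because their counts differed by little more than counting noise. Alternatives comprised 6 separate libraries, either KO library in place of the sum, replicate numbers as a block, other scalings and filters, DESeq2 1.42.0, each sample left out, an offset for length and GC content (natural spline with 5 degrees of freedom) and a squamous term.

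All 36 genes are accounted for, and those called or with the largest change in each role are given by library. Of the pathway list, receptors, Jak1, Tyk2, Irf1, Irf3, the ligands and called genes are named, apart from a gene not reported here. Gene names beyond that rule were chosen after their values were seen. The genes and lists were chosen with earlier results of these data known.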

Additional observations from a re-analysis of the deposited data

How the results depend on the processing

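The main limits are 2 KO samples, 3 calls close to the threshold, and a length trend shared by all genes. The main analysis called 1 of the 36 genes higher and 2 lower, 426 of all genes and 0 higher and 2 lower pathway genes, with a member median of -0.08. Leaving out any WT sample, KO1, or KO2 and KO3 gave 0 members and 0 pathway genes called in either direction, 0 to 17 genes in all, and a member median of -0.22 to -0.024, while 10 to 18 members and 3346 to 5070 of all genes passed 0.05 before adjustment. With the 6 libraries separate, 5 members were higher and 7 lower, 4 pathway genes higher and 15 lower, and 3402 genes were called, with a median of -0.041. DESeq2 called 4 members higher and 10 lower, 6 pathway genes higher and 22 lower, and 3919 genes. The squamous term gave 3 and 6 members, 1 and 13 pathway genes, 2529 genes and a median of -0.051. The length and GC offset left 0 members, 0 pathway genes and 0 genes of all (edgeR, 3817 below 0.05 before adjustment) and a median of -0.042. KO2 in place of the sum gave a median of -0.11 and 1 pathway gene lower. KO3 gave -0.049, 1 member lower and 1 pathway gene lower. Library size alone gave 0 members higher and -0.14, no filter 1 member and 1 pathway gene lower, and a minimum of 10 counts 909 genes.

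The deviations of same-numbered libraries correlated at -0.52, 0.76 and -0.78. These values cannot show whether the replicate numbers pair the samples, because KO2 and KO3 were nearly alike. Their correlations with WT3 were -0.77 and -0.78. With the replicate block 2 members were called higher, 4 pathway genes lower and 1157 genes in all (median -0.044), and with the block and the offset 0 members, 0 pathway genes and 11 genes (median -0.021).

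Of 833 comparisons of a gene's log2 fold change with an alternative, 711 kept direction and side of the threshold, 41 lost and 33 gained the call and 48 changed sign, the latter for genes near 0 and Rsad2, and the cause was not tested. With a WT sample or KO1 left out the values ran from -0.081 to 0.033 for Dhx58, -0.11 to 0.058 for Stat2, -0.042 to 0.037 for Irf9, -0.037 to 0.049 for Ifit1, -0.058 to 0.13 for Oas2, -0.072 to 0.26 for Oasl1, -0.057 to 0.12 for Oasl2, -0.18 to 0.033 for Mx1, -0.069 to 0.10 for Xaf1, -0.034 to 0.039 for Ifngr1, -0.045 to 0.20 for Ifnlr1 and -0.0089 to 0.031 for Irf1. Without KO2 and KO3 they were -0.10 for Oas2, -0.12 for Oasl2, -0.45 for Rsad2 (0.72 to 1.5005 with the other samples left out), -0.15 for Ifnlr1 and -0.032 for Irf1. With the offset, without and with the block, they were 0.032 and 0.037 for Irf9, -0.019 and -0.015 for Oasl1, 0.013 and 0.023 for Ifi44, 0.045 and 0.067 for Xaf1, 0.046 and 0.034 for Parp9 and -0.035 and -0.022 for Irf1, and -0.015 for Ifngr1 with both. Separate libraries gave 0.00042 for Irf9, 0.0042 for Ifit1 and 0.018 for Xaf1, the replicate block 0.0034 for Ifit1 and 0.014 for Xaf1, and the squamous term 0.00071 for Ifit1. Library size alone gave -0.030 for Oas2, -0.042 for Oasl2, -0.018 for Ifngr1, -0.011 for Ifnlr1 and -0.048 for Irf1. KO2 in place of the sum gave -0.0032 for Oasl2, and KO3 -0.0099 for Irf1.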

Other observations

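Other interferon-induced genes with the KO1 pattern of the GTPases included the chemokine gene Cxcl9, a ligand that draws T cells, with 2.10, 2.76 and 2.17 CPM in WT and 0.492, 1.64 and 1.80 in KO (log2 fold change -1.06, edgeR adjusted p = 0.28). Its relative Cxcl10 had 1.79, 2.02 and 1.98 CPM in WT and 1.89, 3.14 and 2.95 in KO (log2 fold change 0.36, edgeR adjusted p = 0.398). In antigen processing, the immunoproteasome genes Psmb8 and Psmb9 and the peptide transporter gene Tap1 overlapped between the groups, with log2 fold changes of 0.00, -0.12 and -0.23. Rnf213, a very long antimicrobial ubiquitin ligase gene, had 295, 311 and 302 CPM in WT and 180.0, 231 and 223 in KO (log2 fold change -0.57, edgeR adjusted p = 0.0632), and -0.33 with the length and GC offset. Ly6e, which blocks the fusion of coronaviruses with the cell, had 1067, 1025 and 1151 CPM in WT and 1435, 1313 and 1308 in KO (log2 fold change 0.35, edgeR adjusted p = 0.0718). These genes were named after their values were seen.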
